A study of Caenorhabditis elegans with 5 samples.

Results

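Nascent RNA of met-2 set-25;set-32 mutant C. elegans (the triple mutant) was compared with that of set-32 mutants, so that the strains differed by the loss of the histone methyltransferases (HMTs) MET-2 and SET-25 in animals that already lacked SET-32. The comparison used 2 of the 5 libraries of the series, which their library codes place in 1 library set apart from the other 3, and 99764 of 100270 windows of 1 kb, after 506 windows that the authors mark as misannotated were left out. set-32 animals carried allele ok1457, and the triple mutant carried it together with met-2(n4256) and set-25(ok5021). The other strains were wild type N2 (WT), met-2(n4256) set-25(ok5021) and hrde-1(tm1200), the last of which lacks the germline Argonaute protein of nuclear RNAi. All were synchronized young adults, raised at 19 °C on OP50 bacteria, and whole animals were used, so germ line and soma are mixed in every value. Levels are RPKM, which for a window of 1 kb are reads scaled to an equal total per library, in pre-mRNA-seq, the sequencing of RNA from chromatin pulled down through RNA polymerase II with phosphate on serine 2 of its tail, a form found on elongating polymerase. Each genotype has 1 library, so differences lack a replicate check, p-values are not given, and windows do not stand in for replicates. All coordinates are those of ce6 (WS190), counted from 1.

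Trimethylation of histone H3 at lysine 9 (H3K9me3) is a mark of compacted, mostly silent chromatin, and in C. elegans it is richest over repeats and the arms of the autosomes. MET-2 is known for adding the lower degrees of methylation to this lysine, SET-25 for completing the trimethyl mark, and SET-32 for H3K9me3 that small RNAs guide in the germ line. The met-2 and set-25 alleles are deletions, and the study genotyped each by a pair of oligonucleotides that lie inside the deleted stretch and give no product in the mutant. They are printed because these stretches are what the triple mutant lacks and set-32 keeps. RefSeq (WBcel235) places both genes on chromosome III, while the study's methods list met-2 on chromosome V. Each is given 5′ to 3′.
met-2 SG-834: gttggcagccgtaatgaaat
met-2 SG-835: cgagccagacagaaatctcc
set-25 SG-836: atatggatgcccacgagaag
set-25 SG-837: ccgtgaaaaagagcatcaca

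The absence of met-2 and set-25 could not be read at the genes themselves, since no annotation of the files' build was used. The window III 13288001 to 13289000, singled out after its values were seen, bears on the labels. It was at 0 RPKM in the strains that carry both deletions, the triple mutant and met-2 set-25, while WT had 45.6 RPKM, set-32 28.8 RPKM and hrde-1 35.4 RPKM. Of 26314 windows without a read in both carriers it had the most reads in the other 3 libraries together (90.0). Whether a deletion lies there was not tested. The windows that the study's primer list puts at set-32 (I 9519001 to 9521000) averaged 2.70 RPKM in set-32 and 3.09 RPKM in the triple mutant, while WT had 10.5 RPKM, met-2 set-25 8.96 RPKM and hrde-1 10.3 RPKM. Both strains labelled with the set-32 allele were thus the lowest, on 3 and 2 reads.

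The libraries of this pair were shallow, and the triple mutant was the shallower. From the smallest steps of the values, set-32 held 556576 reads and the triple mutant 323824, and the other 3 libraries held 670017 to 1096371. A window at 20 RPKM rested on 11.1 reads in set-32 and 6.48 reads in the triple mutant, and 41.5% and 48.8% of windows held no read. The 13 windows of the rRNA genes at the right end of chromosome I (I 15060001 to 15073000) took 27.9% of the set-32 library and 37.4% of the triple mutant library, against 4.66% to 8.93% of the other libraries. Their level was 1.34-fold higher in the triple mutant than in set-32 (95% counting interval 1.33 to 1.35) and higher in each of the 13 windows. For the high rRNA share of this pair, the set-32 allele and the library set cannot be told apart. The rRNA windows were left out of everything that follows, which leaves 99751 windows.

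Outside the rRNA genes, the triple mutant had slightly less nascent RNA than set-32 as deposited. The summed level was 0.865 times that of set-32 (counting interval 0.861 to 0.870), and it was above set-32 in 27.7% of windows and below it in 38.5%. In the 29248 windows whose mean reached 5 RPKM the median ratio, after adding 1 RPKM to each value, was 0.833. Since RPKM is a share of a library that the rRNA reads also fill, the groups of windows below are given with a relative ratio, which is their ratio of sums divided by the 0.865 of all windows and does not move with scaling.

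Single windows were called by size, with 1 RPKM added to each value, a ratio of 2 or more, and 20 RPKM or more in the higher library. Lower windows outnumbered higher windows. The rule called 741 windows higher in the triple mutant (0.743% of all windows, and 8.03% of the 9227 windows that reached 20 RPKM in either library) and 2503 lower (2.51% and 27.1%). That split depended on scaling, since 22.8% of called windows were higher as deposited, 44.8% when both libraries were scaled to their total without the rRNA genes (2752 higher and 3391 lower, 15.4% and 19% of the windows that then reached 20 RPKM) and 42.4% when the median ratio was set to 1 (1378 higher and 1874 lower, 13.4% and 18.2%). These scalings shifted every log2 ratio by 0.21 and 0.23. The counting interval of the ratio lay above 1 in 573 windows (0.574%) and below 1 in 1552 (1.56%), which included 367 of the windows called higher and 1199 of those called lower. Of the called windows, 5 of the higher had no read in set-32 and 73 of the lower had no read in the triple mutant.

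The ratio followed the amount of H3K9me3 that a window carries in WT. The authors sort windows into tiers, of which the files give no definition. Tier 1 (100 windows) to tier 3 hold nearly all windows that lost H3K9me3 in the triple mutant, and tiers 5 to 7 hold 1 window marked in both replicates, so tier 1 is read here as the highest. Tier 1 had 23.5 RPKM in set-32 and 14.9 RPKM in the triple mutant, a ratio of 0.633 (0.570 to 0.704) and a relative ratio of 0.732. Tier 2 (891 windows) had 10.7 and 7.45 RPKM, with a relative ratio of 0.807. Tier 3 (4040 windows) had 8.46 and 6.21 RPKM and a relative ratio of 0.848. Tiers 1 to 3, read as the richest in H3K9me3, were therefore the tiers whose nascent RNA was lowest against set-32, and none of the 3 was higher. The order of tiers 1 and 2 was not fixed. On the autosomes alone their ratios were 0.632 and 0.627, and median ratios of windows whose mean reached 5 RPKM were 0.629 and 0.582. Counting intervals of tiers 1 and 2 overlapped, and so did those of tiers 2 and 3.

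Windows poor in H3K9me3 lay on the other side. Tier 5 (25160 windows) had 3.66 RPKM in set-32 and 3.71 RPKM in the triple mutant, a ratio of 1.01 (1.00 to 1.03) and a relative ratio of 1.17, and tier 6 had a relative ratio of 1.13. Tier 4 was between, at 0.927. Tier 7, the lowest in H3K9me3 and the most transcribed at 14.0 and 11.6 RPKM, did not continue the order, with a relative ratio of 0.956. The calls went the same way. Of windows that reached 20 RPKM, 36.4% of tiers 1 to 3 were called lower and 4.63% higher, against 27.1% and 8.03% of all, while in tiers 5 and 6 22.6% were called lower and 13.1% higher. Tier 2 had the largest share called lower, with 74 lower and 5 higher of 151.

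The pair of met-2 set-25 and WT shares no library with this pair and gives the loss of the same HMTs with SET-32 present. Its relative ratios were 0.686, 0.750, 0.930, 1.00, 1.16, 1.11 and 0.943 from tier 1 to tier 7. The order of the tiers was nearly that of the triple mutant against set-32, with tier 1 lowest and tier 5 highest in each pair. The counting intervals of the pairs overlapped in tiers 1, 2 and 5 and not in tiers 3, 4, 6 and 7, and they were farthest apart in tier 3 (0.826 to 0.870 against 0.915 to 0.946) and tier 4 (0.915 to 0.940 against 0.996 to 1.01). The difference between the pairs was not tested.

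**Figure D1:**
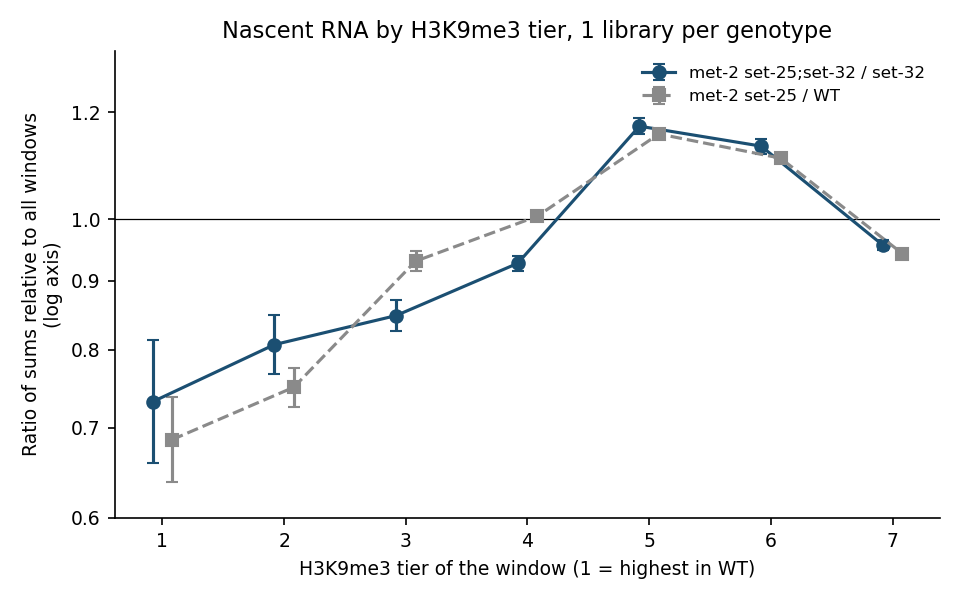
Ratio of summed RPKM in each H3K9me3 tier divided by the ratio over all windows outside the rRNA genes, on a log axis, for the triple mutant against set-32 (circles) and met-2 set-25 against WT (squares), with 1 library per genotype and bars for 95% counting intervals. Both pairs are lowest in tier 1 (0.732 and 0.686) and highest in tier 5 (1.17 and 1.16).

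Tiers differ in how strongly they are transcribed, and the ratio itself moved with level, so the tiers were also compared among windows of like level in WT, a library outside the pair. Over all tiers the ratio of sums was 1.35 in the 30216 windows at 0 RPKM in WT, 1.14 in those above 0 and up to 5 RPKM, 0.875 above 5 and up to 20 RPKM, 0.827 above 20 and up to 100 RPKM, and 0.802 above 100 RPKM. In summed level, windows silent or nearly silent in WT were thus higher in the triple mutant than in set-32, and well-transcribed windows lower. Counts of windows did not show the first of these, but they cannot decide it, because they depend on depth. Of windows at 0 RPKM in WT, 84.2% held no read in set-32 and 87.1% none in the shallower triple mutant library. At 0 RPKM in WT, 3599 windows were above set-32 and 3783 below it. Above 0 and up to 5 RPKM, 11599 were above and 12575 below. Within these levels tiers 1 to 3 had a ratio of 1.08 (0.904 to 1.30), 0.858 (0.796 to 0.924), 0.739 (0.703 to 0.776), 0.689 (0.664 to 0.714) and 0.701 (0.672 to 0.731), while tiers 5 and 6 had 1.39, 1.21, 0.948, 1.01 and 0.808. Tiers 1 to 3 were the lowest group at each level but the highest, where tier 4 was lower, at 0.605 (0.590 to 0.621) in 147 windows. The counting interval of tiers 1 to 3 overlapped that of tier 4 in the windows at 0 in WT and lay below those of the other groups at the 3 levels between.

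**Figure D2:**
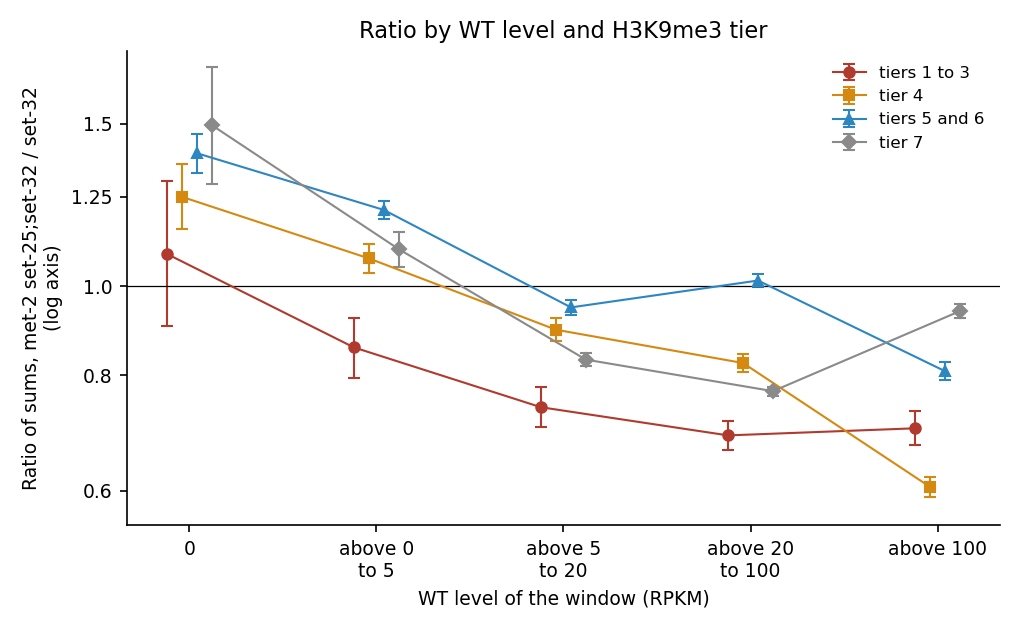
Ratio of summed RPKM, triple mutant over set-32, on a log axis, in 5 classes of the WT level (RPKM) for groups of H3K9me3 tiers, with bars for 95% counting intervals. The ratio is highest in windows at 0 in WT (1.08 to 1.49), and tiers 1 to 3 lie below the other groups except above 100 RPKM.

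Among windows above 100 RPKM in WT are some of the strongest of the genome, singled out here after their values were seen. The 5 windows from IV 8261001 to 8266000, of tiers 4 and 5, were at 1752 to 2454 RPKM in set-32 and 769 to 1217 RPKM in the triple mutant, with ratios of 0.439 to 0.505. The windows from X 5101001 to 5105000, of tiers 3 and 4, were at 1266 to 1708 RPKM and 601 to 732 RPKM, with ratios of 0.386 to 0.477. In WT both groups lay between 717 and 1343 RPKM and in met-2 set-25 between 607 and 1043 RPKM, so set-32 was the highest of these 4 libraries in each window. Without windows above 100 RPKM in WT, the relative ratio of tier 4 was 1.02.

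Windows marked for H3K9me3 loss in the triple mutant had less, not more, nascent RNA there than in set-32. The loss is against WT, not against set-32. The paper reports a prominent H3K9me3 reduction in set-32 animals too, so set-32 shares part of that loss. The authors mark windows in which H3K9me3 was lost against WT in each of 2 replicates of their chromatin experiment. The 3221 windows marked in both had 9.56 RPKM in set-32 and 6.90 RPKM in the triple mutant (ratio 0.722, 0.702 to 0.742, relative 0.834), the 1264 windows marked in a single replicate had a ratio of 0.729, and the 95266 windows marked in neither had 0.874. Of 497 marked windows that reached 20 RPKM, 183 (36.8%) were called lower and 22 (4.43%) higher, next to 27.1% and 8.03% of all such windows. Because tiers and marks overlap, the mark was also read within tiers 1 to 3. This separates mark from tier only in part. Marked in either replicate were 99 of 100 windows in tier 1, 880 of 891 in tier 2 and 2950 of 4040 in tier 3. The unmarked windows are thus nearly all of tier 3. In tiers 1 to 3 the ratio was 0.714 (0.693 to 0.735) with the mark in both replicates and 0.716 (0.675 to 0.758) with it in a single replicate. Without the mark it was 0.741 (0.709 to 0.775). The last value was set by 3 windows, from X 5102001 to 5105000, the only ones of these tiers above 700 RPKM in WT. Without them the unmarked windows were at 0.912 (0.865 to 0.961), and the marked ones, which do not include them, stayed at 0.714. Called lower were 168 (38.6%) of 435 windows with the mark in both replicates that reached 20 RPKM and 19 (26.0%) of 73 without it, and median ratios of windows whose mean reached 5 RPKM were 0.695 and 0.946. Within tiers 1 to 3 as a whole, marked windows were thus lower than unmarked ones once those 3 windows were left out. This order held in the autosome arms but not in the centres. In the arms the ratio was 0.694 (0.672 to 0.717) with the mark in both replicates and 1.04 (0.978 to 1.11) without it. In the centres it was 0.598 (0.534 to 0.668) with the mark and 0.420 (0.357 to 0.491) in 50 windows without it. Leaving out the run III 6564001 to 6575000, described below, put the latter at 0.621 (0.498 to 0.773).

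Lower still were the windows that need SET-32 for H3K9me3 as well. The 770 windows marked as having lost H3K9me3 in set-32 itself, in both replicates, had 14.6 RPKM in set-32 and 8.54 RPKM in the triple mutant, a ratio of 0.584 (0.556 to 0.614) and a relative ratio of 0.675. Of 199 that reached 20 RPKM, 95 (47.7%, next to 27.1% of all) were called lower and 5 (2.51%, next to 8.03%) higher. The 726 of these windows that carry the triple mutant mark too had 0.588 (0.558 to 0.620), and the 2495 windows with the triple mutant mark but not the set-32 mark in both replicates had 0.787 (0.762 to 0.813). The 2620 windows marked in met-2 set-25 had 0.709 (0.689 to 0.729). The set-32 windows were thus below the others beyond counting error. The counting interval of the met-2 set-25 windows overlapped that of the triple mutant windows (0.702 to 0.742). The marked sets share windows. In met-2 set-25 against WT the relative ratio was 0.727 in the set-32 windows, 0.844 in the triple mutant windows and 0.851 in the met-2 set-25 windows. These sets differ in tier. Tiers 1 and 2 held 72 and 394 of the 770 set-32 windows, and 99 and 875 of the 3221 triple mutant windows. The set-32 mark was not read within tiers.

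Native targets of germline nuclear RNAi, listed by the study from hrde-1 animals, lay in the same direction. The 191 GRTS windows, where transcriptional silencing depends on nuclear RNAi, had 10.5 RPKM in set-32 and 5.95 RPKM in the triple mutant on average (ratio 0.569, 0.504 to 0.640). The 215 GRH windows, where H3K9me3 depends on it, had 18.6 and 9.75 RPKM (0.523, 0.480 to 0.571). Of windows that reached 20 RPKM, 23 of 43 GRTS windows (53.5%) were called lower and 3 higher, and 42 of 83 GRH windows (50.6%) lower and 0 higher, against 27.1% lower and 8.03% higher of all such windows. These lists do not carry the whole pattern, since the 2984 windows with the triple mutant mark outside them had a ratio of 0.747 (0.725 to 0.769).

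As wholes, the chromosomes differed little. The relative ratio was 1.01 on I, 1.03 on II, 0.956 on III, 0.993 on IV, 1.02 on V and 0.985 on X. By tier they differed more. On X the ratio was 0.674 (0.638 to 0.712) in tiers 1 to 3, 0.705 (0.685 to 0.725) in tier 4, 0.988 in tier 5, 1.02 in tier 6 and 1.11 (1.02 to 1.21) in tier 7. On the autosomes it was 0.732 in tiers 1 to 3, 0.833 in tier 4, 1.02 in tier 5, 0.974 in tier 6 and 0.826 (0.819 to 0.832) in tier 7. On both, tiers 1 to 4 thus lay below tiers 5 and 6, and tier 7 windows were above set-32 on X and below it on the autosomes. Few windows set the low values of X. Without the 3 windows of tiers 1 to 3 above 700 RPKM in WT its tiers 1 to 3 were at 0.905 (0.843 to 0.971), and without windows above 100 RPKM in WT they were at 1.10 (1.01 to 1.20) and tier 4 at 0.930 (0.895 to 0.966), next to 0.698 and 0.897 on the autosomes. That 1.10 in turn rested on a single window, X 59001 to 60000, without which it was 0.886 (0.806 to 0.971). Tier 7 windows were also less transcribed on X, at 2.29 RPKM in set-32 against 14.6 RPKM on the autosomes, and the ratio moved with level as given above. X is held largely silent in the germ line, so its RNA in whole animals comes mostly from the soma. The part of level in the tier 7 values was not tested. In tiers 6 and 7 together X had a relative ratio of 1.19 and each autosome 0.945 to 1.04, taken against all windows of these tiers. These pooled groups differ in make-up. X has 6216 windows of tier 6 and 1044 of tier 7, and the autosomes have 18945 and 22773. In tier 6 alone X and the autosomes were closer, at 1.02 and 0.974.

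**Figure D3:**
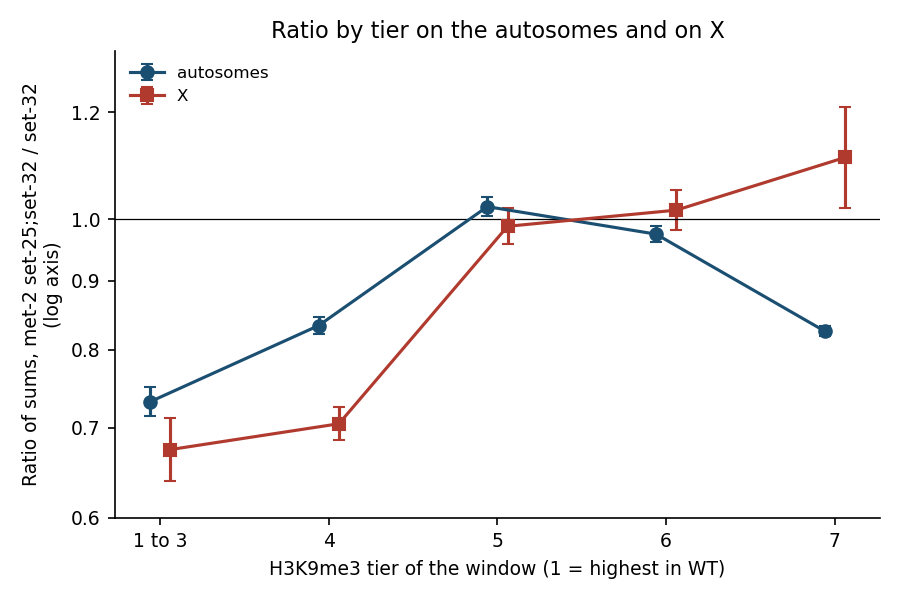
Ratio of summed RPKM, triple mutant over set-32, on a log axis by H3K9me3 tier on the autosomes (circles) and on X (squares), with bars for 95% counting intervals. In tier 7 the autosomes are at 0.826 and X is at 1.11, while in tier 4 X is lower (0.705 against 0.833).

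A single window turned the value of marked windows on X. The 232 windows on X with the triple mutant mark had a ratio of 1.17 (1.05 to 1.30), against 0.609 to 0.754 on each autosome. The window X 59001 to 60000, of tier 2 and with reads shared between places, was at 158 RPKM in set-32 and 693 RPKM in the triple mutant, while WT had 95.9 RPKM, met-2 set-25 176 RPKM and hrde-1 102 RPKM. Without it the ratio on X was 0.815 (0.719 to 0.921) and the relative ratio 0.942 (0.831 to 1.06).

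Arms and centres of the autosomes had nearly equal ratios over all windows, at 0.862 in the arms (the outer 30% on either side) and 0.872 in the centres. H3K9me3-rich windows were less common in the centres and had a lower ratio there, to which 1 run of windows contributed. The 240 windows of tiers 1 to 3 in the centres had 16.5 RPKM in set-32 and 8.76 RPKM in the triple mutant (0.532, 0.488 to 0.581), and the 4373 in the arms had 7.71 and 5.82 RPKM (0.755, 0.736 to 0.775). Without the run III 6564001 to 6575000, described below, the centres were at 0.606 (0.551 to 0.665). Of 58 in the centres that reached 20 RPKM, 31 (53.4%, next to 27.1% of all) were called lower and 0 (next to 8.03%) higher, and 23 of 50 were lower without the run. Over windows with the triple mutant mark in both replicates the counting intervals overlapped, at 0.675 (0.615 to 0.741) in the centres and 0.700 (0.679 to 0.721) in the arms. Tier 4 had the same order, at 0.720 in the centres and 0.886 in the arms. The centre value includes the very strong tier 4 windows among IV 8261001 to 8266000, given above, and was not taken without them. In tiers 5 and 6 the ratios were 0.991 and 0.997.

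**Figure D4:**
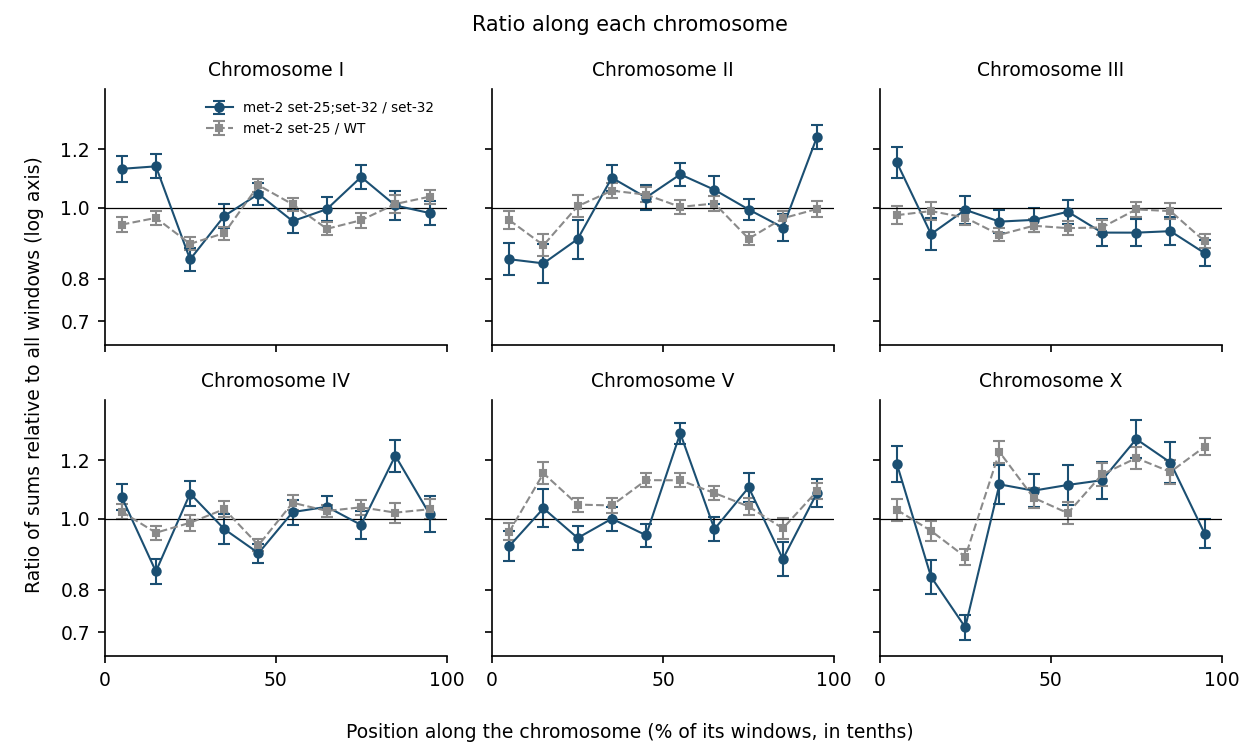
Ratio of summed RPKM in each of 10 equal parts of a chromosome divided by the ratio over all windows, on a log axis, for the triple mutant against set-32 (circles) and met-2 set-25 against WT (squares), with bars for 95% counting intervals. The third part of X is the lowest for the triple mutant (0.711) and the sixth part of V the highest (1.31).

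Along the chromosomes, most stretches of 100 kb stayed near the genome's ratio. Of 710 bins with at least 100 reads in each library, 87.9% had a relative ratio within 1.5-fold of 1, and the range was 0.467 to 3.43. The log2 ratios of the bins ran with those of met-2 set-25 against WT, with Pearson's r of 0.546 and Spearman's rho of 0.535 over the 710 bins. No library is shared, but the bins share their sequence content and the level on which the ratio depends, and neighbouring bins are not independent, so the correlation is a description.

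The lowest bins were on III and X. III 6500001 to 6600000 had 18.0 RPKM in set-32 and 7.27 RPKM in the triple mutant (0.404, 0.350 to 0.467). X 3400001 to 3500000 had 40.2 and 17.1 RPKM (0.426, 0.388 to 0.468), and X 3500001 to 3600000 had 53.8 and 24.3 RPKM (0.452, 0.417 to 0.489). Leaving out the window of the largest difference in each gave 0.420, 0.438 and 0.460. The bin on III rested largely on 1 run of 11 windows, III 6564001 to 6575000, without which it was at 0.703 (0.568 to 0.868). All 3 were also low in met-2 set-25 against WT, at 0.421, 0.586 and 0.537.

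The highest bins were on X, IV and V. X 12400001 to 12500000 had 2.50 RPKM in set-32 and 7.43 RPKM in the triple mutant (2.97, 2.41 to 3.70), and 2.52 without its window of the largest difference. IV 14300001 to 14400000 had 6.89 and 19.5 RPKM (2.83, 2.49 to 3.22), and 2.46 without that window. V 15800001 to 15900000 had 1.87 and 4.50 RPKM (2.41, 1.86 to 3.13), but 0.952 without the window V 15873001 to 15874000, which was at 133 RPKM in set-32 and 398 RPKM in the triple mutant. Only the first and second of these bins thus stayed high without a single window, and neither was raised throughout. In the first, 29 windows were above set-32 and 31 below. Its 7 windows that reached 20 RPKM were all called higher and form the run X 12468001 to 12475000, described below. The bin was not taken without that run. In the second, 27 windows were above and 28 below, and only 2 reached 20 RPKM, both called higher.

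Adjacent windows called the same way formed runs, and as deposited long runs were mostly of lower windows. Lower calls were also more numerous, at 2503 against 741, so adjacent lower calls meet more often. That excess depended on scaling, and runs were not counted under the other scalings. Higher windows made 669 runs, of which 614 were single windows and 7 had at least 3 windows. Lower windows made 2021 runs, of which 1672 were single and 81 had at least 3. The longest in each direction are named.

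The longest higher runs were on I and X, each of 7 windows. I 7260001 to 7267000 had 19.5 RPKM in set-32 and 98.4 RPKM in the triple mutant (5.04-fold, 3.87 to 6.63), while WT had 16.3 RPKM, met-2 set-25 60.6 RPKM and hrde-1 37.3 RPKM. X 12468001 to 12475000 had 14.5 and 84.3 RPKM (5.81-fold, 4.33 to 8.04), and 14.7, 47.8 and 30.1 RPKM in the same 3 libraries. Their windows ran from 30.9 to 145 RPKM in the triple mutant on I and from 49.4 to 154 RPKM on X. Neither run held a window marked in both replicates for H3K9me3 loss in the triple mutant. In both, set-32 was near WT and each strain without MET-2 and SET-25 was above it.

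The other higher runs differed among themselves. V 11174001 to 11178000 had 171 RPKM in set-32 and 453 RPKM in the triple mutant (2.65-fold, 2.32 to 3.02), but set-32 was already well above WT, at 46.3 RPKM, and all of its 4 windows held reads shared between places. I 14625001 to 14629000 had 15.3 and 38.6 RPKM (2.52-fold, 1.60 to 4.03) and was near WT in met-2 set-25, at 16.5 RPKM against 13.7 RPKM. V 6124001 to 6127000 had 13.2 and 28.8 RPKM (2.19-fold, 1.21 to 4.01) and 10.9 RPKM in WT against 27.4 RPKM in met-2 set-25.

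The longest lower runs were of varied chromatin. III 6564001 to 6575000, 11 windows of reads shared between places, had 113 and 30.5 RPKM (0.270, 0.219 to 0.332), next to 114 RPKM in WT and only 14.0 RPKM in met-2 set-25. IV 3041001 to 3049000, of tiers 6 and 7, had 242 and 90.7 RPKM (0.375, 0.324 to 0.432) and was 0.508 times WT in met-2 set-25. II 11756001 to 11762000, with no window marked in both replicates, had 88.0 and 28.8 RPKM (0.327, 0.241 to 0.437), where set-32 was already below WT, at 188 RPKM. None of these 3 runs held a window marked in both replicates of the triple mutant.

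The remaining 2 runs were marked. II 1772001 to 1779000, all of tier 3 and with 4 of 7 windows marked in both replicates, had 55.1 RPKM in set-32 and 16.4 RPKM in the triple mutant (0.297, 0.203 to 0.421), while WT had 40.3 RPKM and met-2 set-25 26.6 RPKM. V 5182001 to 5189000, with all 7 windows marked and 6 in GRTS, had 30.9 and 7.06 RPKM (0.228, 0.127 to 0.388), on 120 and 16 reads. There WT had 30.0 RPKM, met-2 set-25 12.2 RPKM and hrde-1 202 RPKM. It was therefore lowest in the triple mutant and highest without HRDE-1.

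**Figure D5:**
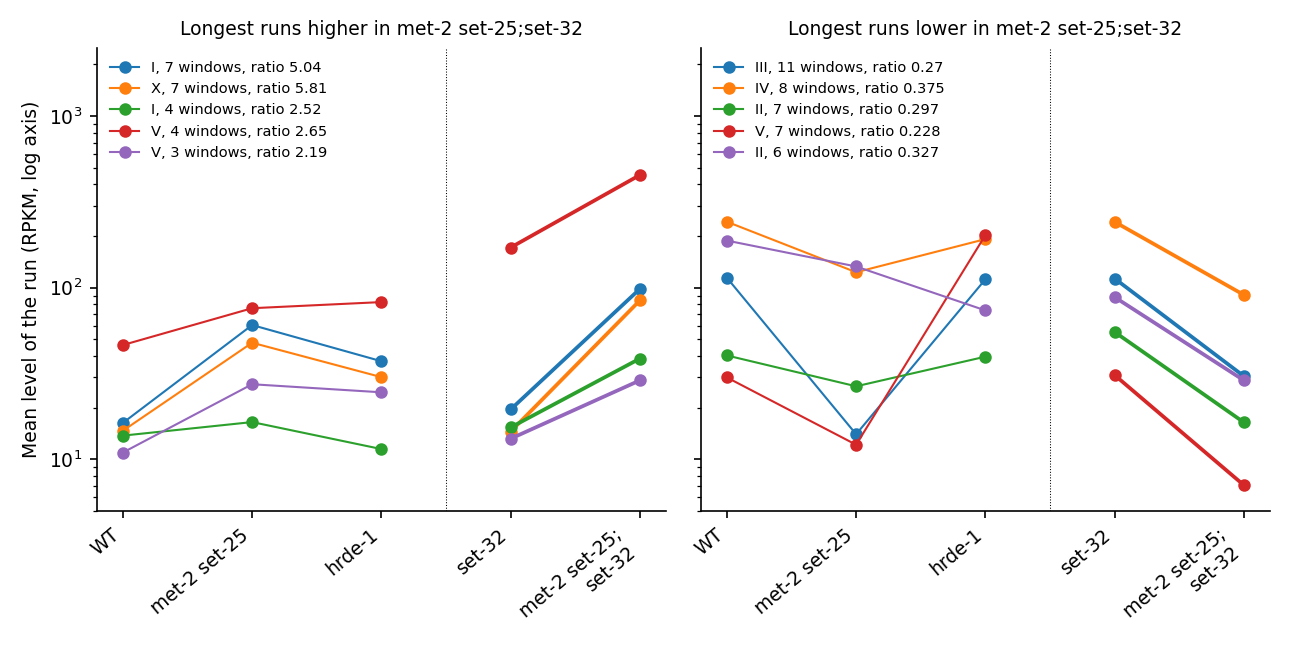
Mean level (RPKM, log axis) in the 5 libraries of the longest runs of windows called higher (left) and lower (right) in the triple mutant, with lines joining libraries of the same library set. In the higher run on X the triple mutant is at 84.3 and set-32 at 14.5 RPKM, and in the lower run of 11 windows on III they are at 30.5 and 113 RPKM.

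The windows with the most extreme ratios, or with counting intervals farthest from 1, numbered 33, of which 17 were higher and 16 lower. All 17 higher windows were above WT too in met-2 set-25, and 15 of the 16 lower windows were below it. Of all 9227 windows that reached 20 RPKM in the present pair, 40.2% were above WT there and 59.6% below. Some of the 33 are adjacent, and they form 30 blocks. Many of these values rest on few reads. X 12471001 to 12473000 had 16.2 RPKM in set-32 and 134 RPKM in the triple mutant (8.31-fold, 4.96 to 14.7). I 11609001 to 11610000 had 25.2 and 157 RPKM (6.26-fold, 3.41 to 12.2), while WT had 29.2 RPKM and met-2 set-25 68.7 RPKM. X 7687001 to 7688000 had 5.39 and 74.1 RPKM (13.8-fold, 4.18 to 71.3), with 8.21 and 34.3 RPKM in the other pair. II 7059001 to 7060000 and III 7766001 to 7767000 held no read in set-32 and 24.7 RPKM in the triple mutant, for which the counting interval of the ratio has a lower limit of 2.93.

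Among the lowest windows, V 1698001 to 1700000 had both of its windows marked in both replicates. It had 104 RPKM in set-32 and 4.63 RPKM in the triple mutant (0.0444, 0.00904 to 0.133), while WT had 19.4 RPKM, met-2 set-25 7.84 RPKM and hrde-1 61.5 RPKM. The set-32 value was there the highest of the 5. II 14318001 to 14320000, also marked, had 42.2 RPKM in set-32, no read in the triple mutant, and 36.5 and 26.1 RPKM in WT and met-2 set-25. V 18439001 to 18440000, a GRTS window of tier 1, had 32.3 RPKM in set-32 and no read in the triple mutant, with an upper limit of 0.391 for the ratio. II 5099001 to 5100000, in both GRTS and GRH, had 101 RPKM in set-32 and 9.26 RPKM in the triple mutant (0.092, 0.018 to 0.283). I 14653001 to 14654000, of tier 7 and with no mark, had 165 and 12.4 RPKM (0.0747, 0.0199 to 0.198).

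Some of the higher windows were already above WT in set-32. Of the 741 higher windows, 107 (14.4%) were at least 2-fold above WT in set-32, against 5.18% of all windows that reached 20 RPKM. Among the 107 higher windows at 200 RPKM or more in the triple mutant, 78 were of this kind, and so were 120 of all 227 windows at that level that reached 20 RPKM. An example is the window IV 14326001 to 14327000, which carries much of the highest bin on IV, where WT had 138 RPKM, met-2 set-25 237 RPKM, set-32 456 RPKM and the triple mutant 1377 RPKM. Higher windows held 14.2% of the RNA outside the rRNA genes in the triple mutant and 4.21% in set-32. For windows above WT in both strains, the set-32 allele and the library set cannot be told apart.

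The called windows were also read in met-2 set-25 against WT, where 7.29% of 16292 windows that reached 20 RPKM were called higher and 7.7% lower by the same rule (1.19% and 1.26% of all windows). Of the 741 windows higher in the triple mutant, 569 (76.8%) were above WT in met-2 set-25, with a median ratio of 1.49, and 126 (17.0%) were called higher. Of all 9227 windows that reached 20 RPKM in the present pair, 40.2% were above WT and 4.06% were called higher. Of the 2503 lower windows, 1885 (75.3%) were below WT, with a median ratio of 0.778, and 261 (10.4%) were called lower, next to 59.6% and 6.09% of the 9227. The shared windows were 10.6% of the 1188 called higher in met-2 set-25 and 20.8% of the 1255 called lower. The pairs thus leaned the same way at most called windows while calling few of the same ones, at depths where 20 RPKM is 6.48 to 21.9 reads.

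As a marker of the germ line, oma-1, a gene expressed in oocytes, was given whatever its value. At IV 8889001 to 8891000 it had 40.4 RPKM in set-32 and 13.9 RPKM in the triple mutant (0.344, 0.148 to 0.712), while WT had 93.9 RPKM, met-2 set-25 66.4 RPKM and hrde-1 69.3 RPKM. The tubulin gene tba-1, at I 9786001 to 9787000, had 64.7 and 43.2 RPKM (0.668, 0.333 to 1.27). The marker was thus present in both strains and lowest in the triple mutant, with a counting interval below the ratio of all windows. In whole animals, fewer cells of a type and less RNA per cell cannot be told apart, and the part of germ line content in the results above was not tested.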

How the data were processed

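The authors prepared pre-mRNA-seq libraries from RNA pulled down with RNA polymerase II phosphorylated at serine 2, aligned reads to WS190 (ce6) with Bowtie 0.12.7 (submitters' processing notes), used perfect alignments alone, counted a read that matched N places as 1/N at each, and deposited RPKM values per 1 kb window with no pooling. The deposited tier of H3K9me3 is a score whose definition is not given in the sources used here. Value columns were matched to strains by library code through the study's list of libraries, and 0 value columns stayed unmatched. The strain codes of the marks were read by matching the number of marked windows to the study's. rRNA gene windows are the kept windows of tier 8.

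Reads were recovered from the step of the values (1 read was 1.80 RPKM in set-32 and 3.09 RPKM in the triple mutant), and 78.8% to 80.6% of positive values were whole multiples within 0.02 read. A share or ratio has an exact Clopper-Pearson 95% interval on rounded read sums, which covers counting error only, because copies made by PCR are not separate molecules. A call needed a 2-fold ratio or more with 1 RPKM added to each value, which understates low windows, and 20 RPKM or more in the higher library. No test was run, with 1 library per genotype. Named by rule were the 10 largest and 10 smallest ratios among called windows, the 10 windows in each direction with counting intervals farthest from 1, the 5 longest runs in each direction, the 3 highest and 3 lowest bins of 100 kb, and the windows of set-32, oma-1 and tba-1 in the study's primer list, whose build is not stated. The comparison, lists and rules were chosen with earlier results of these data known. No annotation of ce6 was used, so windows carry no gene names. Scripts were tested on simulated data and used Python 3.11.15, pandas 2.3.3, numpy 2.4.6, scipy 1.17.1 and matplotlib 3.10.9. Other pseudocounts, minimum levels, ratios, scalings and subsets of windows were tried.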

Additional observations from a re-analysis of the deposited data

Results flagged for a closer look

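A few windows went opposite ways in the pairs that lose MET-2 and SET-25 with and without SET-32. Of windows called higher in the triple mutant than in set-32, 12 (1.62%) were called lower in met-2 set-25 than in WT, and of those called lower, 32 (1.28%) were called higher, next to 6.09% lower and 4.06% higher in met-2 set-25 of all 9227 windows that reached 20 RPKM in the triple mutant or set-32. The difference between the pairs was not tested, and each genotype has 1 library. None of these windows was marked in both replicates for H3K9me3 loss in the triple mutant, but only 497 of all 9227 windows were. Of tier 7 were 6 of the 12 and 14 of the 32, next to 5148 of the 9227. The 12 include I 3863001 to 3864000, where WT had 60.2 RPKM, met-2 set-25 28.4 RPKM, set-32 18.0 RPKM and the triple mutant 49.4 RPKM. The 32 include I 7658001 to 7659000, with 82.1, 196, 52.1 and 24.7 RPKM in the same libraries, where the counting interval of the triple mutant against set-32 was 0.187 to 1.06.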

How the results depend on the processing

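Of 82 other values of the results that answer a comparison, 34 stayed within 1.5 times the count or within the counting interval of the reported value, 45 moved out of it, and 3 crossed 1 from a value whose counting interval did not hold 1. Windows called higher and lower were 2417 and 5880 when the higher library had to reach 10 RPKM, 180 and 501 when it had to reach 50 RPKM, 1374 and 4157 with a ratio of at least 1.5, and 125 and 525 with a ratio of at least 4. The counting interval alone gave 1552 lower. Scaling each library to its reads outside the rRNA genes gave 2752 higher, and scaling to a median ratio of 1 gave 1378 higher. The ratio over all windows was 1.00 with the rRNA gene windows kept, since both libraries are scaled to the same total, and 1.01 scaled to a median ratio of 1, which turns its direction.

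The relative ratio of tiers 1 to 7 in turn was 0.609, 0.717, 0.885, 0.950, 1.17, 1.12 and 0.949 with whole reads alone. As medians of windows whose mean reached 5 RPKM, tiers 1 to 7 were 0.755, 0.699, 0.951, 1.05, 1.12, 1.05 and 0.907. On autosomes alone tiers 1 to 4 were 0.729, 0.724, 0.894 and 0.962. Tier 1 was thus not the lowest in either of these settings. Without windows above 100 RPKM in WT, a setting chosen after seeing the data, tiers 4, 6 and 7 were 1.02, 1.17 and 0.904. Tier 4 thus crossed 1 as a median and without the strongest windows, and the cause was not tested. Tiers 1 to 3 stayed below 1 and tiers 5 and 6 above it in each of these settings.

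Relative ratios of marked windows moved less. Those with the triple mutant mark were at 0.808 without windows above 100 RPKM in WT. Those with the met-2 set-25 mark were at 0.845 marked in either replicate, 0.794 with whole reads alone, 0.848 as a median and 0.795 without windows above 100 RPKM in WT. Those with the set-32 mark were at 0.765 marked in either replicate. GRTS windows were at 0.578 and GRH windows at 0.546 with whole reads alone, and GRH windows at 0.703 as a median, settings also added after seeing the data. In tiers 6 and 7 alone chromosomes I, V and X were at 0.996, 1.01 and 1.19 and the arms at 0.967, with arms of the outer 20% they were at 1.00, and without windows above 100 RPKM in WT chromosomes I, III and X were at 0.957, 0.924 and 1.16. X thus lay above 1 in both settings, and the cause was not tested. Chromosome I was not apart from 1 in tiers 6 and 7. Taken against all windows, its counting interval there was 0.984 to 1.01. The mix of tiers 6 and 7 differs between X and the autosomes, as given above.

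Windows left out after their values were seen turned 3 values. Tiers 1 to 3 on X had a ratio of 0.674 with all windows and 1.10 without those above 100 RPKM in WT, but 0.886 when X 59001 to 60000 was left out too. The marked windows on X had a relative ratio of 1.35 with X 59001 to 60000 and 0.942 without it, and the bin V 15800001 to 15900000 a ratio of 2.41 with its window of the largest difference and 0.952 without it. No named window changed direction under another pseudocount or scaling. No paired analysis was possible because each genotype has 1 library and no result comes from a test. Depth limits single windows most, since 20 RPKM is 6.48 reads in the triple mutant.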
